A study of Mus musculus with 46 samples.

Results

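The genes described here encode the proteins of the cytosolic ribosome, and their messenger RNA was measured by RNA-seq in microglia, the resident macrophages of the brain. Members were all symbols of the count table made of Rpl, Rps or Rplp and a number, with an optional letter or digit of a paralog, plus Rpsa, while symbols with a hyphen, which pseudogenes often carry, were left out. Of 54134 symbols, 89 fitted this pattern and 88 had at least 1 count, 53 of the large and 35 of the small subunit. Of these 88, 83 are annotated as protein-coding and 5 as processed pseudogenes without a hyphen in the symbol (Rps4l, Rpl32l, Rpl6l, Rps3a2 and Rps3a3). The 46 libraries came from wild-type mice (WT) and from 5xFAD mice (labelled AD), a transgenic line in which the neuronal Thy1 promoter drives human amyloid precursor protein and presenilin genes with familial Alzheimer mutations. The mice were fed a zero-fiber diet, a control diet or HAMSAB, a starch from high-amylose maize to which acetate and butyrate had been attached. Each diet and genotype had 8 libraries, 4 from females and 4 from males, except WT mice on zero fiber with 4 female and 2 male libraries. Strain, age, time on the diet and the isolation of the microglia are not given in the labels, and no group received anything that the labels name beyond diet and genotype. The labels do not tie each library to a separate mouse, so p-values measure the spread between libraries, which may be partly technical.

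Each cytosolic ribosome holds a single copy of nearly every ribosomal protein, so their genes are usually transcribed at balanced, high rates, and excess free protein is degraded. Their messenger RNAs begin with a run of pyrimidines at the 5′ end (the 5′ TOP motif), through which the kinase mTOR and the protein Larp1 set how many of them are translated. Several members have a second role: Rpl11, Rpl5 and Rpl23 bind Mdm2, the ligase that degrades p53, when ribosome assembly fails. Ribosomal protein genes have also left many processed pseudogenes in the mouse genome, whose sequences can be almost identical to the parent transcript.

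The libraries held between 52114 and 6950429 counts each (median 2344837.5), of which the members took 2074581 in all. The lowest total belonged to replicate 3 of zero-fiber AD (replicates are numbered in accession order), and replicate 1 of that group, labelled female, had sex-linked transcripts at a male level. Levels are given as CPM, a gene's counts scaled to a common library total, after TMM scaling, and fold changes as log2 values with the standard error (SE) of an edgeR quasi-likelihood fit to all libraries, with sexes weighted equally. Summed over 10 markers, microglial transcripts lay between 25974 and 42097 CPM in all libraries, against 3.57 to 39.2 CPM for 7 neuronal markers, 139 to 267 CPM for 6 oligodendrocyte markers, 154 to 382 CPM for 6 astrocyte markers and 16.1 to 161 CPM for 8 markers of perivascular macrophages. Most of the astrocyte sum came from Slc1a3, with a mean of 248 CPM over all libraries, followed by Slc1a2 with 9.24 CPM. In bulk RNA, fewer cells of a type and less RNA per cell cannot be told apart.

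Start-site sequences were searched for a pyrimidine run, and the windows of some members whose level differed between groups are printed. RefSeq start windows (build GRCm38.p6) matched 64 of the 88 members by symbol. In 14 of their 76 windows (18.4%) the annotated start was a C followed by at least 4 further pyrimidines (C or T), compared with 2.51% of 32851 promoters of all genes. Because annotated starts can lie some bases away from the true one, 50 bases on either side were searched too. Of the members' windows, 77.6% held a run of at least 8 pyrimidines on the strand of the gene, compared with 35.7% of all promoters. The 30 bases around the longest run are printed 5′ to 3′ on the strand of the gene for Rpl11, Rpl23, Rps12 and Rps25, with that run in capitals. They lie at chr4:136053358-136053387 (minus strand), chr11:97782404-97782433 (minus), chr10:23787182-23787211 (minus) and chr9:44407684-44407713 (plus).
Rpl11: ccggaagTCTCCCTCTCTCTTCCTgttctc
Rpl23: gagtgggcggggCCTCCCgttcatatccca
Rps12: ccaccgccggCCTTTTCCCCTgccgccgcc
Rps25: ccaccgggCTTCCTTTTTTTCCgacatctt
The run was 17 bases long in Rpl11, 14 in Rps25, 11 in Rps12 and 6 in Rpl23. It began at position 13 relative to the annotated start in Rpl11, 8 in Rps12, 18 in Rpl23 and -22 in Rps25. None of these runs begins at the annotated start, and that of Rpl23 is shorter than 8 bases. Whether they lie at the 5′ end of the transcripts cannot be told from these windows. No start window was matched for Rpl7 or Rpl29.

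Levels per transcript length, in CPM per kilobase averaged over all libraries, differed widely between members. Rps29 (1904), Rps27 (1606) and Rps14 (1144) stood highest, all of them small-subunit proteins with short transcripts. The lowest were Rpl3l (0.0140), Rpl10l (0.0194) and the pseudogene Rpl6l (0.660), of which Rpl3l is known as a muscle form of Rpl3 and Rpl10l as a testis form of Rpl10. Of the 88 members, 83 passed the filter on low counts; Rpl32l, Rpl6l, Rps3a2, Rpl10l and Rpl3l did not. Among the coding paralogs that passed, Rps27l had 152 CPM per kilobase, Rpl7l1 41.8, Rpl22l1 10.4 and Rpl39l 3.11, and of the pseudogenes Rps4l had 32.5 and Rps3a3 3.53. Rps3a1 (128) and Rps4x (102), whose symbols carry a suffix too, are the standard mouse genes of their proteins. None of these 8 members passed the test in any of the 9 comparisons of diet or genotype, and the smallest adjusted p among them was 0.234, for Rps4l between HAMSAB and zero fiber in AD mice (edgeR log2 fold change 0.51 ± 0.17 SE).

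Some proteins of the standard ribosome were listed far below their partners, although 1 copy of each goes into a ribosome. Rpl24, a large-subunit protein, had 6.87 CPM per kilobase, Rpl23a 17.7, Rpl15 27.2, Rps6 35.4 and Rpl29 37.5. The annotated transcripts of other genes were searched for stretches at least 95% identical over at least 100 bases. Rpl21 had 61 such pseudogenes, Rpl7a 39, Rps2 32 and Rpl29 31. The 15 tested coding members with at most 1 such pseudogene had a median of 371 CPM per kilobase, the 28 with 2 to 5 had 283, and the 38 with 6 or more had 165. Over these 81 members the level per length and the number of pseudogenes had a Spearman rho of -0.27, a description across genes and not across samples. Rpl24, with 3 such pseudogenes, does not follow that order. How the counting treated reads that match several genes is not given in the sources used here, so levels of members with near-identical copies are uncertain.

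**Figure D1:**
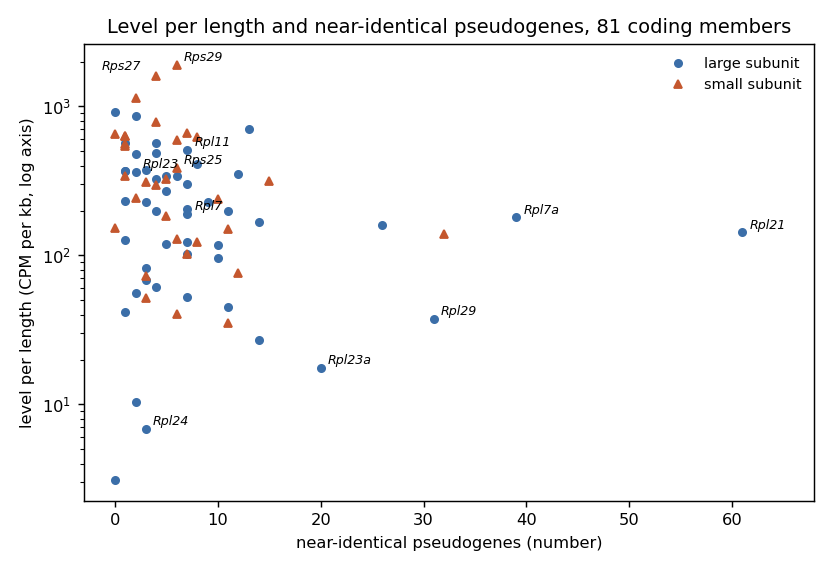
Level per length (CPM per kilobase, mean of 46 libraries, log axis) against the number of near-identical pseudogenes for the 81 tested protein-coding members, large subunit as circles and small subunit as triangles. Members with 6 or more pseudogenes have a median of 165, those with at most 1 a median of 371, and Rpl24 lies low with 3.

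The summed level of all members differed little between groups. It was 16914 ± 840 CPM (SD, n = 6) in zero-fiber WT, 17344 ± 2973 in zero-fiber AD, 18053 ± 2502 in control WT, 18246 ± 1259 in control AD and 17571 ± 1203 in HAMSAB WT (n = 8 each). HAMSAB AD stood highest with 19961 ± 2289 CPM (n = 8), and its lowest, median and highest libraries had 17104, 19668 and 24968 CPM. The groups overlapped: the lowest HAMSAB AD library lay below the median of control AD, at 18308 CPM. Large-subunit members summed to 10308 ± 1213 CPM and small-subunit members to 9653 ± 1092 CPM in HAMSAB AD, and to 8949 ± 699 and 8622 ± 530 CPM in HAMSAB WT, so both subunits stood highest in the same group.

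**Figure D2:**
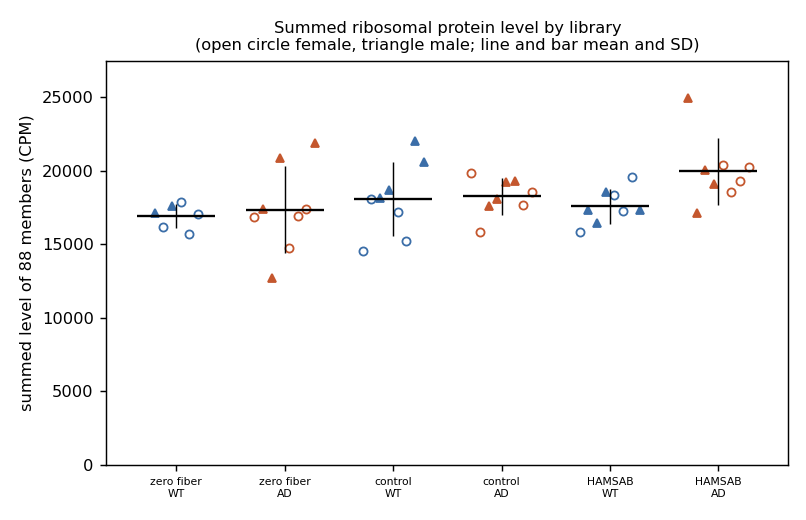
Summed level of the 88 members in each library (CPM), by diet and genotype, with open circles for female and triangles for male libraries and a line and bar for the mean and SD. HAMSAB AD has the highest mean, and 1 of its male libraries (24968 CPM) stands above all others.

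Single members moved apart from this common level. When all 6 groups were compared at once, Rpl11, Rpl7, Rps25 and Rps12 differed (edgeR adjusted p = 0.00177, 0.00585, 0.00735 and 0.0226). Without the 2 control WT libraries of highest Rpl7, chosen after their values were seen, Rpl7 did not pass this test (adjusted p = 0.251), and without the 2 HAMSAB AD libraries of highest Rpl11 neither Rpl11 (0.0985) nor Rps12 (0.135) did. The called members are 4 of 83 tested, 4.82%, beside 4.36% of all 12121 genes tested, so the share of members is near that of all genes. Variation within groups was alike as well: the median biological coefficient of variation was 0.146 for members and 0.149 for 8075 other genes of similar level. Members tended to go up and down together between libraries of a group, with a median Pearson r of 0.37 over the pairs among 72 members of at least 50 CPM (log2 values, deviations from the means of group and sex, 45 libraries). Rpl7, with a median r of 0.03 to the other members, was the least coupled of the 72, and Rplp2, a protein of the ribosomal stalk, the most, with 0.59.

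**Figure D3:**
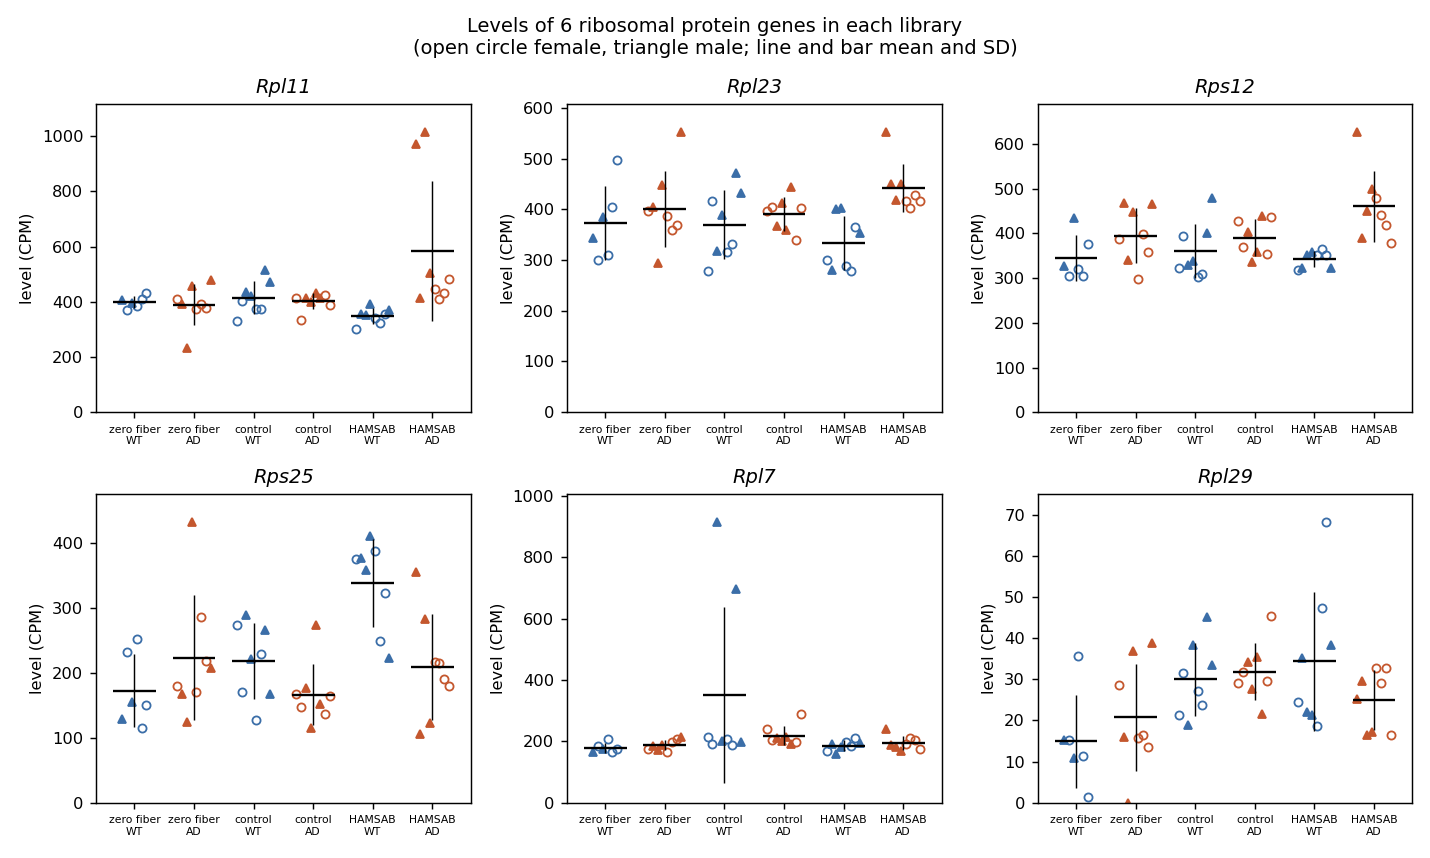
Level (CPM) of Rpl11, Rpl23, Rps12, Rps25, Rpl7 and Rpl29 in each of the 46 libraries by diet and genotype, with open circles for female and triangles for male libraries and a line and bar for the mean and SD. Rpl11 stands at 970 and 1016 CPM in 2 male HAMSAB AD libraries and Rpl7 above 690 CPM in 2 male control WT libraries. For Rpl23 and Rps12 every HAMSAB AD library lies above every HAMSAB WT library, for Rpl23 by a narrow margin.

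On the HAMSAB diet, Rpl11, Rps12 and Rpl23 were higher in AD than in WT microglia. In each of them the groups did not overlap. The share of all genes without overlap was not counted, and the members were picked by small p, so this is a description only. These 3 of 83 members (3.61%) stand beside 1.68% of all genes that passed the test in this comparison. Of the 83 members, 72 had a positive log2 fold change, with a median of 0.17, where all genes had a median of 0.00 and 50.3% above 0. The median was 0.10 (58 positive) without the 2 libraries of highest Rpl11 and 0.08 (59 positive) with the length trend removed. An unadjusted p under 0.05 was reached by 27 of the 83 members (32.5%), beside 1455 of all 12121 genes.

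Rpl11 (ENSMUSG00000059291, chr4:136028265-136053428, minus strand) encodes a large-subunit protein that joins the ribosome with the 5S RNA and Rpl5, and is the main Mdm2-binding ribosomal protein. In HAMSAB AD its lowest, median and highest libraries had 411, 465 and 1016 CPM, and in HAMSAB WT 301, 354 and 393 CPM. Every HAMSAB AD library lay above every HAMSAB WT library, both in females (411 to 483 against 301 to 355 CPM) and in males (413 to 1016 against 353 to 393 CPM). The log2 fold change was 0.70 ± 0.11 (SE), with an edgeR adjusted p of 0.00101. In HAMSAB AD 2 male libraries, replicates 1 and 3, had 970 and 1016 CPM, and the other 6 lay between 411 and 504 CPM. Without these 2 libraries, chosen after their values were seen, the log2 fold change was 0.37 ± 0.09 with an edgeR adjusted p of 0.00871. In the other 4 groups the median lay between 391 and 414 CPM, and by median HAMSAB WT was the lowest group and HAMSAB AD the highest. Relative to all other members, Rpl11 made up a median of 2.46% in HAMSAB AD and 2.02% in HAMSAB WT, against 2.23% to 2.38% in the other groups.

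Rps12 (ENSMUSG00000061983, chr10:23785183-23787275, minus strand), a protein at the beak of the small subunit, had 378, 446 and 628 CPM in the lowest, median and highest HAMSAB AD libraries and 319, 352 and 366 CPM in HAMSAB WT. Again no HAMSAB AD library reached down to a WT library. Its log2 fold change was 0.42 ± 0.09 (edgeR adjusted p = 0.00919). Rpl23 (ENSMUSG00000071415, chr11:97777527-97782437, minus strand), another Mdm2-binding protein, had 404, 423 and 553 CPM in HAMSAB AD and 279, 326 and 402 CPM in HAMSAB WT. The groups again did not overlap, by a narrow margin, and the log2 fold change was 0.41 ± 0.10 (edgeR adjusted p = 0.0293). Relative to all other members, Rpl23 made up a median of 2.24% in HAMSAB AD and 1.91% in HAMSAB WT. The other groups had 2.14% to 2.37%, so by this measure HAMSAB AD did not stand out from them. Leaving out HAMSAB WT replicate 1, 2, 5 or 6 or HAMSAB AD replicate 1, 4, 7 or 8 ended the call of Rpl23 (edgeR adjusted p up to 0.0907), at fold changes between 0.36 and 0.45 over the 16 fits.

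Just outside the threshold in this comparison were Rps24 (0.28 ± 0.08, edgeR adjusted p = 0.0525), Rps13 (0.39 ± 0.11, 0.0549) and Rps29 (adjusted p = 0.0580). Rps13 had 192, 201 and 260 CPM in HAMSAB AD and 123, 159 and 189 CPM in HAMSAB WT. Rps25 pointed the other way, with 106, 203 and 356 CPM in HAMSAB AD and 222, 367 and 411 CPM in HAMSAB WT (-0.71, adjusted p = 0.0676). Rps25 passed as lower in AD with no low-count filter, with no sex in the fit, with voom and with the length trend removed, and also without the 2 libraries of highest Rpl11 (-1.17 ± 0.21, edgeR adjusted p = 0.000649). Libraries whose titles carry numbers below 2900 and those with higher numbers, a possible batch, showed the same directions in mean log2(CPM + 1). The differences were 0.83 in the lower series (5 against 5 libraries) and 0.27 in the higher (2 against 3) for Rpl11. They were 0.51 and 0.31 for Rps12, and 0.46 and 0.33 for Rpl23. HAMSAB AD replicate 8 was placed in neither series.

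Markers of other cells moved between these groups too. The 4 choroid plexus markers summed to 84.0 to 288 CPM (median 169.9) in HAMSAB AD and 20.5 to 175 CPM (median 86.8) in HAMSAB WT. Nearly all of that sum was Ttr, with a mean of 126 CPM over all libraries. Folr1, Kcnj13 and Clic6 had means of 0.55, 0.09 and 0.45 CPM. The 8 perivascular macrophage markers summed to 16.1 to 46.3 CPM and 23.3 to 76.5 CPM. Folr2, with 4 counts over all libraries, was at 0 in all HAMSAB WT libraries. The 10 microglial markers summed to 31252 to 39670 CPM in AD and 28841 to 35374 CPM in WT. The part of these cells in the members' difference was not tested.

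The near-identical pseudogenes of these members were counted as separate genes. Those that passed the low-count filter had positive values too, though not all were called. Gm10288, which is 99.8% identical to the Rpl11 transcript over 537 bases, was higher in HAMSAB AD than WT by 0.54 ± 0.11 (edgeR adjusted p = 0.00481), and Gm10036 by 0.73 ± 0.12 (0.00101). Rps12-ps9 was higher by 0.56 ± 0.11 (0.00377) and Gm9794, a copy of Rpl23, by 0.42 ± 0.11 (0.0293). Rps12-ps4 (0.41 ± 0.16, edgeR adjusted p = 0.243) and Rps12-ps10 (0.83 ± 0.36, 0.302) were not called. Across 45 libraries, leaving out the one of lowest depth, log2 levels of a member and its called copies went together. Pearson r was 0.81 for Rpl11 and Gm10288, 0.83 for Rpl11 and Gm10036, 0.88 for Rps12 and Rps12-ps9 and 0.94 for Rpl23 and Gm9794. For Rps12 it was 0.63 with Rps12-ps4 and 0.36 with Rps12-ps10. Each pair comes from the same libraries and shares sequence, so the rows are not separate measurements, and whether the reads arose from the member or from the copy cannot be told from these counts.

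Between the genotypes on the other diets, no member passed the test. On zero fiber 0 of 83 members were called by edgeR, beside 0.00825% of all genes, and 0 by DESeq2. At an unadjusted p under 0.05 were 4 members (4.82%), beside 4.70% of all genes. Of the members, 65 had positive values and the median was 0.08. The smallest p belonged to Rps10 (0.39 ± 0.14, adjusted p = 0.945), Rpl29 (0.78 ± 0.34) and Rps25 (0.53 ± 0.24). Rps10 had 572 CPM in zero-fiber AD replicate 3, the library of lowest depth, and at most 209 CPM in the other 45 libraries. On the control diet 0 of 83 were called by edgeR, beside 0% of all genes, and 0 by DESeq2. At an unadjusted p under 0.05 was 1 member (1.20%), beside 5.40% of all genes. Of the members, 52 had positive values and the median was 0.03. The smallest p was that of Rpl7 (-0.54 ± 0.17, adjusted p = 0.835), followed by Rps4x (0.19 ± 0.10, 0.908) and Rps25 (-0.39 ± 0.21, 0.937). The Rpl7 value turned to 0.12 ± 0.09 without 2 control WT libraries in which Rpl7 stood high (replicates 3 and 7). Rpl11 was 0.01 ± 0.13 on zero fiber and -0.04 ± 0.11 on the control diet, and Rpl23 was 0.15 ± 0.12 and 0.09 ± 0.10. Rps12 was also somewhat higher in AD on both diets, by 0.19 on zero fiber and 0.13 on control in mean log2(CPM + 1). For Rps12, 7 of 8 AD libraries on zero fiber and 8 of 8 on control lay above the WT median, with overlapping groups.

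In AD mice, HAMSAB went with higher Rpl11 than zero fiber did, and with slightly higher values of most other members. Rpl11 was 1 of 83 members called, beside 0.239% of all genes, with a log2 fold change of 0.50 ± 0.12 (edgeR adjusted p = 0.0474). Zero-fiber AD had 232, 391 and 478 CPM in its lowest, median and highest libraries, and 4 of 8 HAMSAB AD libraries lay above the highest of them. Without those 2 libraries the log2 fold change was 0.16 (edgeR adjusted p = 0.560). The call also ended without any 1 of 12 of the 16 libraries compared, HAMSAB AD replicates 2 and 4 and zero-fiber AD replicates 4 and 8 being the exceptions. In title numbers below 2900 the difference in mean log2(CPM + 1) was 0.78 (5 against 4 libraries) and in higher numbers 0.06 (2 against 4). Of the members, 76 of 83 had positive values with a median of 0.14, where 50.8% of all genes did. This shift was smaller without the 2 libraries of highest Rpl11 (62 positive, median 0.07) and with the trend on length taken out of every library (55 positive, median 0.03). Rps29 (0.31 ± 0.10, adjusted p = 0.187) and the pseudogene Rps4l came next. Summed markers of other cells differed between these groups as well. The 4 choroid plexus markers, nearly all Ttr, had 23.4 to 277 CPM (median 67.7) in zero-fiber AD and 84.0 to 288 CPM (median 169.9) in HAMSAB AD. The 5 erythroid markers had 21.6 to 423 CPM (median 132) and 1.70 to 157 CPM (median 16.5), and the 8 perivascular macrophage markers 30.7 to 89.7 CPM and 16.1 to 46.3 CPM, in the same order. No listed marker of these types was at 0 in all libraries of either group, and the part of such cells in the result was not tested.

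Against the control diet, HAMSAB in AD mice gave a similar picture without a call. Of 83 members 0 were called by edgeR, beside 0.0743% of all genes. At an unadjusted p under 0.05 were 20 members (24.1%), beside 15.3% of all genes. DESeq2 called 1, Rpl11, beside 88 of 12121 genes. Rpl11 had 335, 414 and 433 CPM in control AD and a log2 fold change of 0.49 ± 0.11 (edgeR adjusted p = 0.0541). The difference in mean log2(CPM + 1) was 0.67 in title numbers below 2900 and 0.02 in higher ones, and without the 2 libraries of highest Rpl11 the fold change was 0.16 ± 0.09 (edgeR adjusted p = 0.469). Next in order of p were Rpl32 (0.31 ± 0.10, adjusted p = 0.112) and Rps29 (0.26 ± 0.10, 0.180). The median over members was 0.13, with 63 positive values, but 0.04 with 51 positive without those 2 libraries and 0.02 with 44 positive with the length trend removed. Zero fiber against control in AD mice gave 0 of 83 calls by edgeR, beside 0.0578% of all genes, and 0 by DESeq2. At an unadjusted p under 0.05 were 5 members (6.02%), beside 10.8% of all genes. The median was -0.04 and 35 members were positive. Rps2, Rpl7l1 and Rpl17 had the smallest p (-0.29 ± 0.10, -0.41 ± 0.15 and -0.25 ± 0.10, with adjusted p from 0.268 to 0.309).

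In WT mice, HAMSAB went with higher Rps25 and Rpl29 than zero fiber did, while Rpl11 and Rpl23 had values on the other side of 0. The 2 called of 83 members (2.41%) stand beside 2.19% of all genes, so members were called about as often as other genes. Rps25 (ENSMUSG00000009927, chr9:44407139-44410427, plus strand), a small-subunit protein that many viral and some cellular messages need to start translation from internal sites, had 222, 367 and 411 CPM in HAMSAB WT and 115, 152 and 253 CPM in zero-fiber WT. The log2 fold change was 1.05 ± 0.24 (edgeR adjusted p = 0.0136), and the groups met only between 222 and 253 CPM. Leaving out zero-fiber WT replicate 1 or 3, both male libraries, left 1 male library in that group and ended the call (adjusted p = 0.133 and 0.102) at fold changes of 0.99 and 1.12. The 5 erythroid markers summed to 65.6 to 684 CPM in zero-fiber WT and 8.88 to 140 CPM in HAMSAB WT. Alas2, with 20 counts over all libraries, was at 0 in all of the latter. The part of erythroid cells in the result was not tested. The Rps25 pseudogene Gm6988 was also higher (0.59 ± 0.17, edgeR adjusted p = 0.0481), while Rps25-ps1 was not called (0.64 ± 0.21, 0.112).

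Rpl29 (ENSMUSG00000048758, chr9:106429454-106431568, plus strand), a small large-subunit protein, was low throughout. It had 18.7, 29.9 and 68.3 CPM in HAMSAB WT and 1.37, 13.3 and 35.6 CPM in zero-fiber WT, and the groups overlapped. The log2 fold change was 1.21 ± 0.32 (edgeR adjusted p = 0.0347), and the call was lost on leaving out zero-fiber WT replicate 1, 2, 3, 5 or 6 or HAMSAB WT replicate 2, 6 or 7 at fold changes of 1.01 to 1.58. The difference in mean log2(CPM + 1) was 0.43 in title numbers below 2900 (5 against 4 libraries) and 3.23 in higher ones (3 against 2). Rpl24 came next with 1.02 ± 0.35 (adjusted p = 0.139). Rpl29 is 1 of the members with most pseudogenes, 31, so its counts are among the least certain of the set. Its tested copies Gm3550 (0.15 ± 0.16) and Gm13740 (0.32 ± 0.31) were not called (edgeR adjusted p = 0.802 for each). Over 45 libraries their Pearson r with Rpl29 was 0.32 and -0.10. The median over members was 0.05, with 56 positive values.

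Rpl7, a large-subunit protein (ENSMUSG00000043716, chr1:16101295-16104662, minus strand), was the only member called between HAMSAB and control in WT mice, 1 of 83 beside 0.281% of all genes. It had 160, 189 and 210 CPM in HAMSAB WT and 189, 205 and 915 CPM in control WT, and the log2 fold change was -0.77 ± 0.17 (edgeR adjusted p = 0.0368). Within control WT, 6 libraries lay between 189 and 215 CPM, while replicates 3 and 7, both male, had 915 and 698 CPM. Without these 2 libraries, chosen after their values were seen, the log2 fold change was -0.10 ± 0.09 with an edgeR adjusted p of 0.757, so the call rests on them. It also ended on leaving out any of HAMSAB WT replicates 1 to 4 or control WT replicates 2 and 5. Title numbers above 2900 made up 7 of 8 control WT and 3 of 8 HAMSAB WT libraries, and with a term for the title series the call ended too (-0.76, edgeR adjusted p = 0.130). In the other 44 libraries Rpl7 did not exceed 288 CPM. The same 2 libraries stood high for Rps21, a small-subunit protein, with 455 and 608 CPM where the other 6 had 200 to 271 CPM. The Rpl7 pseudogene Gm4754 reached its highest level of all libraries, 70.6 CPM, in control WT. Across 45 libraries log2 levels of Rpl7 went with those of Rps21 at a Pearson r of 0.85 and of Gm4754 at 0.86. Both values include the 2 control WT libraries picked here for high Rpl7. The r without them was not computed, so no relation over the other libraries can be read from it.

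Other members in this comparison missed the threshold, with Rps25 at 0.64 ± 0.21 (edgeR adjusted p = 0.146) and Rpl23a at -0.77 ± 0.26 (0.160). The median over members was -0.02, with 32 positive values. Zero fiber against control in WT mice gave 0 of 83 calls by edgeR, beside 0.00825% of all genes. There, 10 of 83 members reached an unadjusted p under 0.05, beside 919 of 12121 genes (7.58%). DESeq2 called 1 member, Rpl7, beside 7 of 12121 genes. Rpl7 (-0.85 ± 0.19, edgeR adjusted p = 0.101), Rps21 (-0.52 ± 0.15, 0.256) and Rpl29 (-1.06 ± 0.32, 0.311) had the smallest p, and the leading pair are the members that stood high in the same 2 control libraries. The median was -0.05, with 22 positive values. Within a genotype the 3 comparisons share libraries, as do those of the genotypes with those of the diets, so they are not independent of each other.

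**Figure D4:**
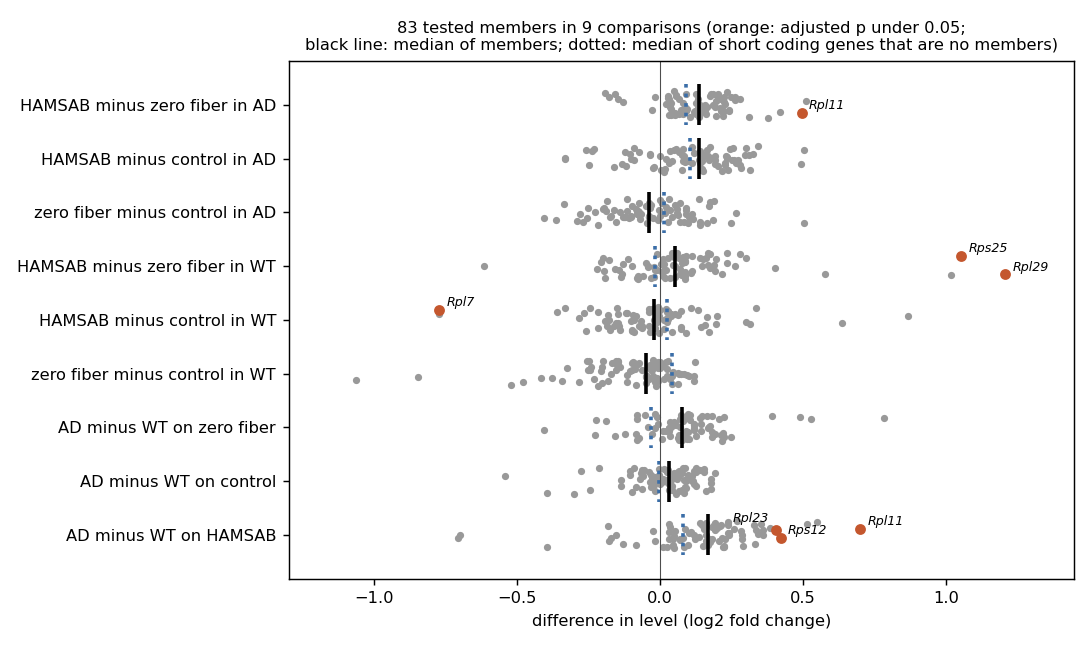
Log2 fold change of each of the 83 tested members in the 9 comparisons of diet or genotype, with called members in orange and named, a black line for the median over members and a dotted line for the median over short protein-coding genes that are not members. The members' median is largest between AD and WT on HAMSAB (0.17), and the dotted line lies on the same side of 0 in that comparison and in both HAMSAB comparisons in AD.

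Whether a diet difference differed between genotypes was tested with interaction terms. For HAMSAB against zero fiber, 2 of 83 members were called (2.41%), beside 1.08% of all genes: the difference was larger in AD for Rpl11 (0.69 ± 0.17, edgeR adjusted p = 0.0295) and larger in WT for Rps25 (-1.23 ± 0.32, adjusted p = 0.0400). The Rpl11 interaction was 0.36 (edgeR adjusted p = 0.173) without the 2 HAMSAB AD libraries of highest Rpl11, and the Rps25 interaction was -1.70 ± 0.30 (0.000456). Leaving out 1 library ended the Rpl11 call in 6 of 30 fits and the Rps25 call in 16 of 30. For HAMSAB against control, 0 of 83 members were called by edgeR beside 0% of all genes, and 0 by DESeq2. At an unadjusted p under 0.05 were 7 members (8.43%), beside 5.53% of all genes. Rpl11 had 0.74 ± 0.16 (edgeR adjusted p = 0.280). For zero fiber against control, 0 of 83 were called by edgeR beside 0% of all genes, and 0 by DESeq2. At an unadjusted p under 0.05 were 2 members (2.41%), beside 6.17% of all genes.

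Most members had positive male minus female values, none of which passed the test. Averaged over the 6 groups, 75 of 83 members were positive in males, with a median log2 fold change of 0.11 where 48.2% of all genes were positive. Of the 83 members, 0 were called by edgeR, beside 0.124% of all genes, and 0 by DESeq2. An unadjusted p under 0.05 was found for 26 (31.3%), beside 10.5% of all genes. Rps7 (0.23 ± 0.06, edgeR adjusted p = 0.111), Rpl36a (0.20 ± 0.06, 0.176) and Rpl26 (0.44 ± 0.13, 0.176) came first. When each library's trend on transcript length was removed, 4 members were called in males, beside 19 of 12121 genes. They were Rpl11, Rpl36a, Rps23 and Rps7. These fits took zero-fiber AD replicate 1 as female, as labelled, although its sex-linked transcripts were at a male level. Without the 2 doubted libraries, replicates 1 and 3 of that group, 78 of 83 members were positive in males, with a median of 0.11.

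Transcript length was examined because members are short: the 83 tested had a median of 774 bases, between 345 and 5130, where all tested genes had 2544. For each library the slope of log2 level on log2 length was fitted over 6638 other genes, so a negative slope means that short transcripts were relatively high in that library. The mean slope was -0.05 ± 0.05 (SD, n = 8) in HAMSAB AD, 0.02 ± 0.05 in zero-fiber AD and 0.00 ± 0.05 in HAMSAB WT. HAMSAB AD was lower than zero-fiber AD by -0.0750 (exact two-sided permutation test, p = 0.0137, adjusted over 9 comparisons p = 0.109), lower than control AD by -0.0687 (exact p = 0.0242, adjusted 0.109) and lower than HAMSAB WT by -0.0535 (exact p = 0.0581, adjusted 0.174). None of the 9 slope differences passed after adjustment. Over the 46 libraries the slope and the log2 summed level of members had a Pearson r of -0.42 and a Spearman rho of -0.43, and r was -0.40 without the 2 libraries of most extreme slope.

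**Figure D5:**
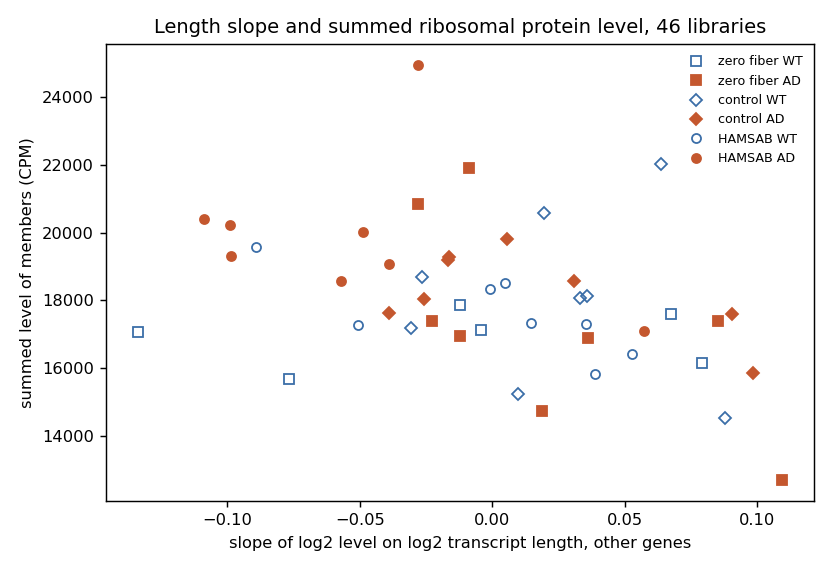
Summed level of members (CPM) against the slope of log2 level on log2 transcript length over other genes, 1 point per library, with orange for AD and blue for WT. Libraries with a lower slope tend to have a higher summed level (Pearson r -0.42 for the log2 sum), and most HAMSAB AD libraries lie at negative slopes.

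Other short coding genes shifted in the same direction as the members where the members' median was largest. Their median log2 fold change was 0.08 between AD and WT on HAMSAB, where the members had 0.17, 0.09 between HAMSAB and zero fiber in AD (members 0.14) and 0.10 between HAMSAB and control in AD (members 0.13). With the length trend removed, Rpl11 remained higher in AD than WT on HAMSAB, while Rps12 (edgeR adjusted p = 0.0740) and Rpl23 (0.0626) no longer passed. Rpl11 between HAMSAB and zero fiber in AD also missed the threshold then (0.37, edgeR adjusted p = 0.123). After that removal the members' median was 0.12 between AD and WT on zero fiber, above the 0.08 on HAMSAB. The interaction of HAMSAB and zero fiber with genotype had a median over members of 0.10 (57 positive) as fitted and of -0.02 (32 positive) with the trend removed. The part of RNA quality or library making in the slope was not tested.

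Genes that act around the ribosome were compared as lists. The 24 translation factors and other TOP transcripts, many of which share the 5′ pyrimidine run, had 0 calls by edgeR between AD and WT on HAMSAB and a median of 0.05, with 14 of 24 positive; Eif3a (-0.34 ± 0.11, adjusted p = 0.112) and Eif3f (0.36 ± 0.12, 0.150) had the smallest p. Of 38 ribosome biogenesis genes, which build and process the subunits, 1 was called in that comparison: Rrn3, the initiation factor of RNA polymerase I, was lower (-0.69 ± 0.17, adjusted p = 0.0241). This 1 of 38 stands beside 1.68% of all genes, and 23 of the 38 had negative values with a median of -0.05. Rrn3 and Gnl3l were the 2 of 38 called higher between HAMSAB and zero fiber in WT (0.70 ± 0.20, 0.0459, and 1.04 ± 0.29, 0.0469), beside 2.19% of all genes, and 34 of the 38 had positive values there with a median of 0.15. Of 19 tested regulators of ribosomal protein synthesis none passed between AD and WT on HAMSAB; Myc, which drives ribosomal protein genes, had 0.73 ± 0.26 (adjusted p = 0.177). Of 9 tested genes of the p53 checkpoint to which free Rpl11 and Rpl23 couple, none passed in that comparison, with Zmat3 (0.78 ± 0.22, adjusted p = 0.0537) and Mdm4 (0.26 ± 0.10, 0.208) first.

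Other sets of genes outside the cytosolic ribosome also had positive medians, which were not tested against that of the members. Between AD and WT on HAMSAB the median was 0.10 for 75 mitochondrial ribosomal proteins and 0.08 for 75 nuclear respiratory chain genes, with 0 called in each. It was 0.10 for 37 proteasome genes with 2 called, where 1.68% of all genes were called. The members had a median of 0.17 and all genes of 0.00. The called proteasome genes were Psma1 (0.34 ± 0.07, edgeR adjusted p = 0.00720) and Psma2 (0.60 ± 0.15, 0.0248), both alpha subunits of the core. Between HAMSAB and zero fiber in AD the medians were 0.11, 0.12 and 0.18 for the same sets, beside 0.14 for the members, with 0 called in each.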

How the data were processed

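RNA of microglia had been extracted with a Qiagen RNeasy Micro kit and made into standard Illumina libraries, per the labels' protocols. The authors deposited raw read counts per gene symbol, aligned with STAR 2.5.2b and counted with featureCounts 1.5.2 on mm10/GRCm38, per the submitters' processing notes. How strand and reads matching several genes were treated is not given there or in the labels. Members and gene lists were chosen with earlier results of these data known.

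From the counts, 12121 genes passed edgeR's filterByExpr. Libraries were scaled by TMM (factors 0.918 to 1.25) and fitted with edgeR 4.0.16 (R 4.3.3) by quasi-likelihood with a mean for each diet, genotype and sex, and p-values were adjusted by Benjamini-Hochberg over all genes tested, with a threshold of 0.05. The fits were tested on simulated data. Levels per length used GENCODE M21 gene models on GRCm38, with the median exonic length of a gene's coding transcripts. Near-identical copies came from BLASTN 2.17.0, start sequences from RefSeq. Named members were Rpl11, Rpl7, Rpl23, every called member, the 3 highest and 3 lowest per length, the 3 of smallest p in each comparison and the paralog copies; others named (Rpl15, Rps6, Rps13, Rps21, Rps24, members called only under an alternative and the like) were chosen after their values were seen. Alternatives were DESeq2 1.42.0 (test and size factors), limma 3.58.1 (voom with quality weights), scaling without the members, no low-count filter, a term for the title series, no sex, only the libraries compared, removal of each library's length trend, leaving out 2 doubted libraries (zero-fiber AD replicates 1 and 3) and leaving out each library. Leaving out the 2 HAMSAB AD libraries of highest Rpl11 or the 2 control WT libraries of highest Rpl7 was added after seeing the data. The fit with a term for the title series left out HAMSAB AD replicate 8, which is in neither series.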

Additional observations from a re-analysis of the deposited data

Results flagged for a closer look

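Rpl11 in zero-fiber AD replicate 3 had 232 CPM, from 15 counts in the library of lowest depth, where the other 7 had 376 to 478 CPM. Rpl11 in control AD replicate 2 had 335 CPM, below the others at 389 to 433 CPM. Rpl23 in HAMSAB AD replicate 1 had 553 CPM, above the others at 404 to 450 CPM. Rps25 in control AD replicate 5 had 274 CPM, above the others at 115 to 176 CPM. The summed level of all members in HAMSAB AD replicate 1 was 24968 CPM, above the others at 17104 to 20405 CPM. Each of these 5 values stood far from the rest of its group by Dixon's test, out of 42 groups examined for 7 items, and chance marks about 1 in 20 groups.

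The HAMSAB minus zero fiber difference of Rpl11 was larger in AD than in WT by 0.69 ± 0.17 (log2, SE, edgeR adjusted p = 0.0295). For Rps25 the same interaction was -1.23 ± 0.32 (edgeR adjusted p = 0.0400).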

How the results depend on the processing

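Counts of called members depended on the settings. Counts within a factor of 1.5 of the count as fitted are left out, except where named. With no low-count filter they were 2 (HAMSAB minus zero fiber, AD), 1 (HAMSAB minus control, AD), 1 (zero fiber minus control, AD), 3 (HAMSAB minus control, WT), 3 (zero fiber minus control, WT), 2, 1 and 5 (AD minus WT on zero fiber, control and HAMSAB), 2 and 2 (interactions of HAMSAB and of zero fiber with control), 1 (male minus female) and 10 (6 groups). For HAMSAB minus zero fiber in AD the count was 0 with DESeq2 size factors, the title series, no sex, without the doubted libraries, only the libraries compared, voom, the length trend removed and without the 2 libraries of highest Rpl11. For HAMSAB minus control in AD it was 1 without the doubted libraries, with DESeq2 and with voom. All genes called there were 19 of 12053, 88 of 12121 and 72 of 12121, in that order. For HAMSAB minus zero fiber in WT it was 1 with only the libraries compared, beside 265 of 11290 genes. For HAMSAB minus control in WT it was 0 with the title series, only the libraries compared, voom and without the 2 libraries of highest Rpl7. For zero fiber minus control in WT it was 1 with DESeq2, beside 7 of 12121 genes. For AD minus WT on HAMSAB it was 5 with no sex and 6 without the doubted libraries. It was 5 with only the libraries compared, 6 with DESeq2 and 7 with voom. All genes called there were 240 of 11311, 228 of 12053, 275 of 10904, 248 of 12121 and 382 of 12121, in that order. As fitted, 204 of 12121 genes were called. With the length trend removed only Rpl11 and Rps25 were called, beside 211 of 12121 genes. For the HAMSAB and zero fiber interaction it was 0 with only the libraries compared. It was 1 with DESeq2, with the length trend removed and without the 2 libraries of highest Rpl11. All genes called there were 155 of 12121, 139 of 12121 and 263 of 12213, in that order. Males had 4 with the length trend removed, beside 19 of 12121 genes. The 6-group test had 2 without the 2 libraries of highest Rpl11. With no low-count filter, all genes called were 204, 357, 269, 433, 183, 93, 149, 464, 66, 207 and 169 of 31448. These follow the order of the comparisons listed above for that setting, without the 6 groups. The causes were not tested. The 6-group test was not run with DESeq2 or with only the libraries compared.

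Leaving out 1 library at a time gave 0 to 1 called members for HAMSAB minus zero fiber in AD, HAMSAB minus control in AD and in WT, zero fiber minus control in WT, male minus female and the interaction of HAMSAB with control. It gave 0 to 2 for HAMSAB minus zero fiber in WT, 2 to 6 for AD minus WT on HAMSAB, 0 to 3 for the HAMSAB and zero fiber interaction and 3 to 7 for the 6 groups. The slope on length ranged from -0.0844 to -0.0569 for HAMSAB minus control in AD and from -0.0907 to -0.0625 for HAMSAB minus zero fiber in AD, each passing (adjusted p 0.0126 and 0.00559) without 1 library. No called member changed sign. Of values that had not passed, Rpl7 in AD minus WT on control turned from -0.54 to 0.12 and its interactions of HAMSAB and of zero fiber with control from 0.61 and 0.65 to -0.06 and -0.02 without the 2 control WT libraries of highest Rpl7. The members' median for the HAMSAB and zero fiber interaction turned from 0.10 to -0.02 with the length trend removed. Other turns of sign were of values between -0.05 and 0.07 as fitted. No paired analysis was possible because the labels give no replicate numbers shared between groups.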

Other observations

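Rps25 differed from the other members in the genes it went with. Over 45 libraries and 6781 genes of at least 20 CPM, 115 other genes had a Pearson r over 0.8 with Rps25 in log2 level, led by Cdkn1b (0.93), Slc39a1 (0.92) and Abhd2 (0.92). Of 78 members, 42 had no such gene. The member most like Rps25 was Rpl10a, with r 0.73, and the median r of Rps25 with the 77 other members was 0.11. These correlations share libraries and depth, were examined after values of Rps25 had been seen, and are a description.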
